A study of Mus musculus with 4 samples.

Results

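The alpha and beta tubulin isotypes are the building blocks of microtubules, and 10 of their genes were followed here: the 4 alpha genes Tuba1a, Tuba1b, Tuba1c and Tuba4a, and the 6 beta genes Tubb2a, Tubb2b, Tubb3, Tubb4b, Tubb5 and Tubb6. They were taken by symbol, 1 row per Entrez identifier, from a table of 27178 genes. Messenger levels came from 4 bulk RNA libraries of neural crest-derived gut cells, sorted from Wnt1-tdT mouse embryos aged 11.5 dpc. Both groups carried the same genotype, in which a red fluorescent protein marks cells of the Wnt1 lineage, and the labels name no treatment. The wavefront group (2 libraries) holds cells from the leading edge of the migration along the gut, and the trailing group (2 libraries) holds cells from 1 to 1.5 mm behind it. Whether the libraries of a group stem from different animals is not in the labels, so each p-value speaks only to the spread among these 4 libraries, and that spread may be technical. The reporter marks the whole lineage, so a library can hold progenitors, young neurons and glial precursors, and in such bulk samples fewer cells of a type and less RNA per cell cannot be told apart.

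An alpha and a beta tubulin protein pair into a heterodimer, and heterodimers polymerise end to end into the protofilaments of a microtubule. The isotypes are encoded by separate genes whose proteins are nearly alike in the folded body and differ mainly in a short acidic tail at the carboxy end, which lies on the microtubule surface and carries added glutamates and other modifications. In vertebrate development, cells that become neurons add beta isotypes that dividing progenitors hold little of, the best known being Tubb3, whose antibody stain (TuJ1) is the usual mark of a young enteric neuron. Enteric neural crest cells at this stage are mostly dividing and migrating progenitors, with the first neurons already among them.

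The coding ends of 5 beta isotypes are shown because most isotypes differ there. Each line gives the last 20 codons before the stop, 5′ to 3′ on the coding strand, from GENCODE M21 on GRCm38, with the glutamate codons GAA and GAG in capitals.
Tubb3 (chr8:123421620-123421679, plus strand): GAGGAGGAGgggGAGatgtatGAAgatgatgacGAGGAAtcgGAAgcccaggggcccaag
Tubb5 (chr17:35834985-35835044, minus strand): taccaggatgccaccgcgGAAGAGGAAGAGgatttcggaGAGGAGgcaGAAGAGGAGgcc
Tubb2b (chr13:34127474-34127533, minus strand): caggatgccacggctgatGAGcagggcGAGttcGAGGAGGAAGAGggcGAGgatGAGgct
Tubb2a (chr13:34074471-34074530, minus strand): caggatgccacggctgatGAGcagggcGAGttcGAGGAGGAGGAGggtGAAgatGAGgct
Tubb4b (chr2:25222311-25222370, minus strand): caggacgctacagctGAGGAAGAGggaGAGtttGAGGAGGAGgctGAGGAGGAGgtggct
Tubb3 held 8 glutamate codons in these 20, Tubb5 9, Tubb2b and Tubb2a 8 each, and Tubb4b 10. Tubb3 was the only one of these 5 beta ends to close on a lysine codon (aag), while the other 4 closed on an alanine codon. Over the last 60 bases Tubb2a and Tubb2b were 95% identical (57 of 60), and their differing codons name the same amino acids. Identity was 47.5% for Tubb3 and Tubb2b and 51.6% for Tubb3 and Tubb5.

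Depth was low and uneven. Outside ribosomal RNA the wavefront libraries held 452144 and 114972 reads and the trailing libraries 386540 and 330644. Wavefront replicate 2 stood apart: ribosomal RNA took 55.5% of its reads, against 15.6% in wavefront replicate 1 and 24.4% to 26.1% in the trailing libraries. The deposited CPM could be turned back into whole reads (100% of values within 0.01 reads). Levels are given as scaled CPM, reads over TMM-adjusted library sizes, and, where genes are compared with each other, as scaled CPM per kb of exon.

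Per kb, Tubb5 and Tuba1a were far above the other isotypes at both positions. At the wavefront Tubb5, the main beta isotype of most dividing cells, averaged 2257 ± 576 scaled CPM per kb and Tuba1a, the main alpha isotype of embryonic neural tissue, 1941 ± 655 (SD, n = 2 libraries each, here and below). The libraries of these 2 genes overlapped at the wavefront. In the trailing libraries Tuba1a averaged 2894 ± 513 and Tubb5 2084 ± 377 scaled CPM per kb, and their libraries did not overlap. Below them at the wavefront came Tuba1b (569 ± 134), Tubb3 (217 ± 32.0), Tubb4b (165 ± 19.4), Tubb6 (95.1 ± 29.3), Tubb2b (89.5 ± 28.3), Tuba1c (46.5 ± 7.96) and Tubb2a (44.2 ± 9.38). Tubb6 and Tubb2b, and Tuba1c and Tubb2a, overlapped in that order and the other neighbours did not. In the trailing libraries Tubb3 came next after Tubb5, at 772 ± 31.4 scaled CPM per kb, above all values of Tuba1b (584 ± 91.8). Tubb4b (177 ± 39.2) and Tubb2b (173.5 ± 36.0) overlapped, as did Tubb6 (70.6 ± 11.1) with both Tubb2a (69.1 ± 2.04) and Tuba1c (58.5 ± 6.65). Tuba4a was at or below 1 read in every library.

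**Figure D1:**
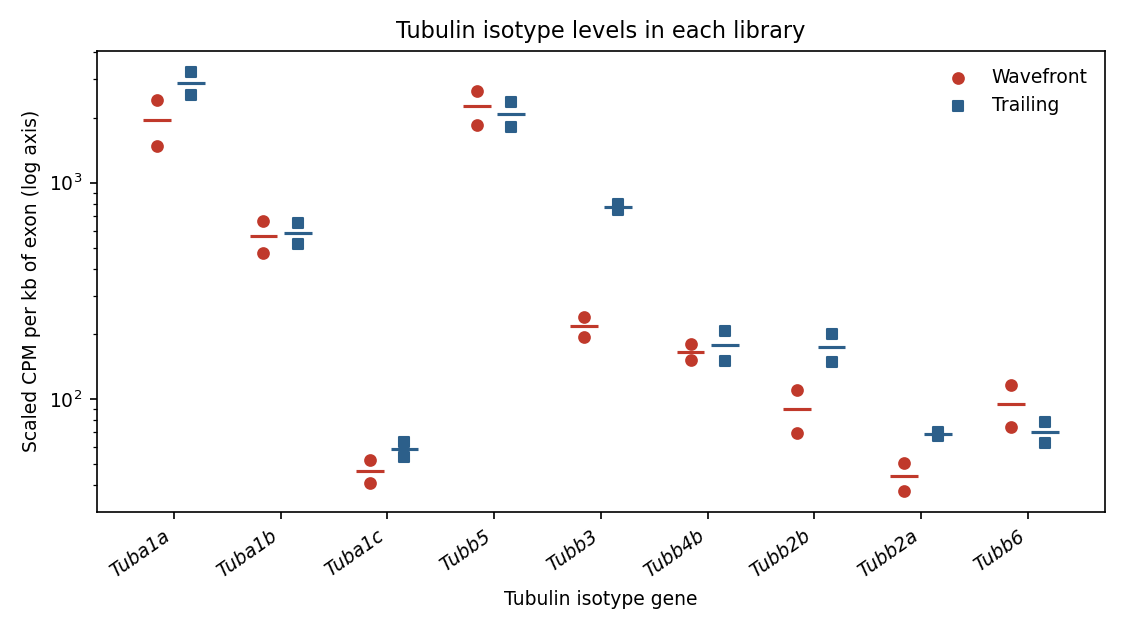
Scaled CPM per kb of exon on a log axis for 9 tubulin genes, with a point per library and a line at the mean of the 2 wavefront (circles, left) and 2 trailing (squares, right) libraries. Tuba4a, at 1 read or none in each library, is left out, and the Tubb3 groups lie far apart, averaging 217 at the wavefront and 772 in the trailing libraries.

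Tubb3, the neuron-enriched class III beta isotype, was 3.53-fold lower in wavefront than in trailing cells. It lies on the plus strand of chromosome 8 (123411424 to 123422015, GRCm38), in 4 coding exons. It had 266 and 62 reads in the wavefront libraries, against 783 and 668 reads in the trailing libraries. As scaled CPM this was 447 and 362 at the wavefront and 1483 and 1400 in the trailing cells, averaging 405 ± 59.7 and 1441 ± 58.6. Both wavefront libraries were low, both trailing libraries were high, and the groups did not overlap. Outside ribosomal RNA, a scale that removes the excess in wavefront replicate 2, Tubb3 was at 588 and 539 CPM at the wavefront and 2026 and 2020 CPM in the trailing libraries, so the 2 libraries of each group lay close together.

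Tubb3 was also the only member called by edgeR, by DESeq2 or from the authors' deposited p-values, and limma called none. In limma on log2(CPM + 1), the test set for normalised values, its log2 fold change was -2.13 ± 0.62 (SE) with a Benjamini-Hochberg adjusted p of 0.680. That test called 0 of 12519 genes (0%), with 858 genes and 3 members (Tubb3, Tubb2b and Tubb2a) at an unadjusted p under 0.05. In edgeR's quasi-likelihood test on the recovered reads, Tubb3 had a log2 fold change of -1.82 ± 0.37 and an adjusted p of 0.00178. That test called 100 of 5759 genes (1.74%), 77 of them lower at the wavefront (1.34%) and 23 higher (0.399%), and 1 of the 9 members tested. DESeq2 on the same reads called 13 of 4690 genes (0.277%), Tubb3 among them at a log2 fold change of -1.81. The authors' deposited folds are shrunken, so they are not a like measure to these. In the authors' deposited table Tubb3 had a log2 fold change of -1.59 (SE 0.31) and a p of 2.02e-07, which adjusted over all genes with a read gave 0.000639, and 13 of 14589 genes passed (0.0891%). The edgeR call was lost without trailing replicate 1 (adjusted p = 0.176), without trailing replicate 2 (adjusted p = 0.0796) and with library size alone as the scale (adjusted p = 0.426). Scaling CPM by TMM factors gave limma an adjusted p of 0.00834 for Tubb3.

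**Figure D2:**
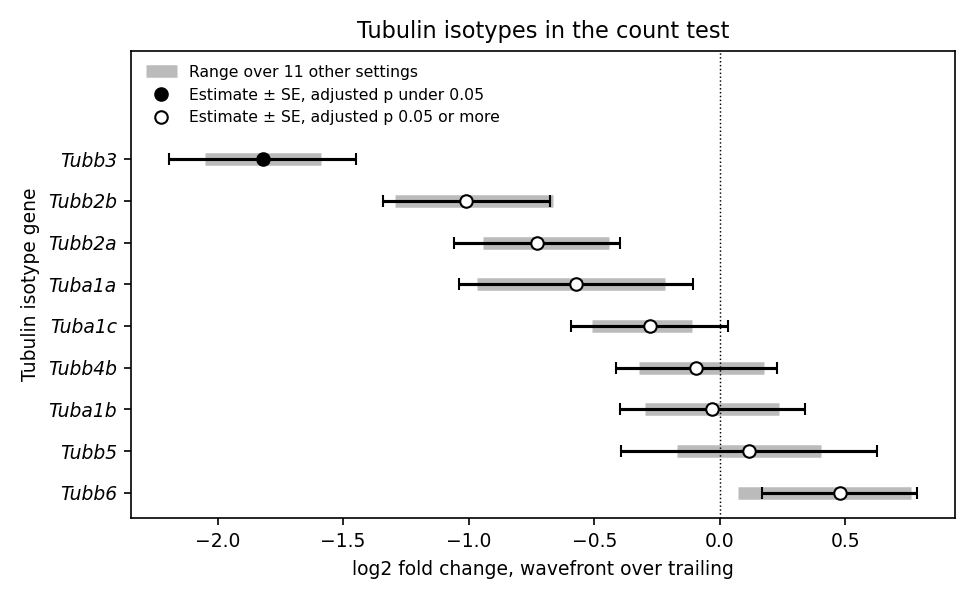
Log2 fold change of the 9 members tested in edgeR's count test, wavefront over trailing, with bars of 1 SE and a grey range over 11 other settings, the authors' shrunken folds among them. Tubb3, at -1.82, is the only filled point, and the grey ranges of Tubb4b, Tuba1b and Tubb5 cross 0.

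Of the other neural beta isotypes, Tubb2b had 95 and 43 reads at the wavefront, against 241 and 162 reads in the trailing cells. Its product is abundant in migrating and differentiating neurons, and changes in the human gene disturb the layering of the cortex. As scaled CPM it was at 160 and 251 at the wavefront and 456 and 339.5 in the trailing libraries, with no overlap. The log2 fold change of -1.01 ± 0.33 did not pass edgeR's test (adjusted p = 0.127). Without wavefront replicate 2 the edgeR adjusted p of Tubb2b was 0.0490, under the threshold of 0.05, and it missed the threshold in the other 10 settings tried.

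Tubb2a, the close relative of Tubb2b and a major beta isotype of adult brain, had 36 and 14 reads at the wavefront and 60 and 52 reads in the trailing cells. Its scaled CPM of 60.5 and 81.8 at the wavefront lay below the 114 and 109 of the trailing libraries, with no overlap. The log2 fold change was -0.73 ± 0.33 and did not pass (edgeR adjusted p = 0.435). Both genes lie on the minus strand of chromosome 13, Tubb2a at 34074274 to 34078007 and Tubb2b at 34126748 to 34130466. Their coding sequences are 96.5% identical and hold an identical run of 551 bases, so reads from 1 gene can be counted for the other or dropped. Summed, Tubb2a and Tubb2b were at 220 and 333 scaled CPM at the wavefront and 570 and 448.5 in the trailing libraries, again without overlap.

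The broadly expressed beta isotypes did not differ beyond the spread of their libraries. Tubb5 (chromosome 17, 35833921 to 35838306, minus strand) had 5278 and 1053 reads at the wavefront and 4130 and 2885 reads in the trailing cells. As scaled CPM it was at 8864 and 6153 at the wavefront and 7821 and 6046 in the trailing libraries, so the groups overlapped, and its log2 fold change was 0.12 ± 0.51 (edgeR adjusted p = 0.973). Tubb4b, found in most tissues and prominent in ciliated cells, lies on chromosome 2 (25222160 to 25224702, minus strand). It had 222 and 54 reads at the wavefront and 226 and 149 reads in the trailing cells. Its scaled CPM overlapped, at 373 and 315.5 at the wavefront and 428 and 312 in the trailing libraries, and its log2 fold change was -0.09 ± 0.32 (edgeR adjusted p = 0.963). Tubb5 was below 0 in 3 of 11 other settings of the count test and Tubb4b above 0 in 2, so neither has a settled direction.

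Tubb6, the class V beta isotype, was the member with the highest log2 fold change. It had 168 and 31 reads at the wavefront and 101 and 73 reads in the trailing cells. Its scaled CPM was 282 and 181 at the wavefront and 191 and 153 in the trailing libraries. Wavefront replicate 1 was the highest library, and wavefront replicate 2 fell between the trailing ones. The log2 fold change of 0.48 ± 0.31 did not pass (edgeR adjusted p = 0.680). It was above 0 in all 11 other settings of the count test (0.07 to 0.76). In limma it was below 0 in 2 of 11 other settings, at -0.57 without wavefront replicate 1 and -0.02 without trailing replicate 2. The medians over all genes were then -0.63 and -0.31, so Tubb6 lay above them.

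Among the alpha isotypes no member passed the test. Tuba1a (chromosome 15, 98949837 to 98953703, minus strand) is the alpha gene in which human variants cause lissencephaly. It had 2581 and 456 reads at the wavefront and 3101 and 2178 reads in the trailing cells. Its scaled CPM of 4335 and 2665 at the wavefront lay below the 5873 and 4565 of the trailing libraries, with wavefront replicate 1 close to trailing replicate 2. The log2 fold change was -0.57 ± 0.47 (edgeR adjusted p = 0.783).

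Tuba1b, the alpha isotype of most cell types, lies beside it on the same strand (98931425 to 98934565). It had 741 and 152 reads at the wavefront and 642 and 464 reads in the trailing cells. As scaled CPM it was at 1244 and 888 at the wavefront and 1216 and 972.5 in the trailing libraries, the wavefront pair lying on either side of the trailing pair. The log2 fold change was -0.03 ± 0.37 (edgeR adjusted p = 0.993), and it was above 0 in 2 of 11 other settings. Tuba1c, a close relative of both on the plus strand (99029891 to 99038110), had 71 and 16 reads at the wavefront and 65 and 69 reads in the trailing cells. Its scaled CPM was 119 and 93.5 at the wavefront and 123 and 145 in the trailing libraries, a narrow gap without overlap, and its log2 fold change was -0.28 ± 0.31 (edgeR adjusted p = 0.861).

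Tuba4a (chromosome 1, 75214228 to 75219865, minus strand), the alpha isotype encoded without its final tyrosine, had 1 and 0 reads at the wavefront and 1 and 0 reads in the trailing cells. Both groups were under the floor of 3 reads, so no fold is given and Tuba4a did not enter the count test. It overlaps Stk16 on the other strand by 1379 bases, and the library kit did not keep the strand, so even these reads may belong to Stk16.

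Across the 9 members tested, 7 fold changes were below 0 and 2 above, with a median of -0.28, against a median of 0.01 over all 5759 genes tested and 49.4% of those below 0. Groups did not overlap for 5 of the 9, all lower at the wavefront (Tubb3, Tubb2b, Tubb2a, Tuba1a and Tuba1c). Over all genes tested, 20.9% had groups that did not overlap and were lower at the wavefront, 18.3% were so and higher, and 39.1% did not overlap either way. The summed tubulin message took 2.09% and 1.64% of reads outside ribosomal RNA at the wavefront and 2.42% and 2.03% in the trailing libraries. The ranges overlap, and an exact permutation test on the deposited CPM sums gave a two-sided p of 0.667, where 2 against 2 libraries cannot go below 0.333.

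Shares within a family do not depend on how a library is scaled, but they sum to 100%, so a lower share of 1 isotype raises those of the others. Of the beta reads per kb, Tubb3 made up 7.24% and 7.98% at the wavefront and 21.5% and 25.02% in the trailing cells, a difference of -15.6 percentage points. Tubb5 made up 80.6% and 76.1% at the wavefront and 63.6% and 60.7% in the trailing cells. The Tubb3 groups did not overlap, and the exact permutation test gave the smallest p it can, 0.333. The higher Tubb5 share at the wavefront is the other side of the lower Tubb3 share and no separate result, since the Tubb5 level itself overlapped between groups. Against Tubb5 alone, Tubb3 stood at 8.98% and 10.5% at the wavefront and 33.8% and 41.2% in the trailing cells, per kb. As plain reads, the Tubb3 share of beta reads was 4.39% (95% Clopper-Pearson interval 3.88 to 4.93) and 4.93% (3.80 to 6.28) at the wavefront. It was 14.1% (13.2 to 15.1) and 16.7% (15.6 to 17.9) in the trailing libraries, so no wavefront interval reached a trailing one. Intervals cover counting error only, since reads made by PCR without molecular identifiers are not independent molecules.

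The other beta isotypes were each under 7% of the family. Tubb6 made up 3.50% and 3.06% of beta reads per kb at the wavefront and 2.12% and 2.10% in the trailing libraries, without overlap. Tubb2b was at 2.10% and 4.51% at the wavefront and 5.38% and 4.94% in the trailing cells, also without overlap, though wavefront replicate 2 came near. Tubb2a and Tubb4b overlapped, at 1.14% to 2.26% and 4.99% to 6.22% over the 4 libraries. The beta sum without Tubb3 was 1.05 times as high in wavefront as in trailing cells in scaled CPM, within the spread of the libraries.

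Within the alpha family Tuba1a made up 77.0% and 74.2% of reads per kb at the wavefront and 82.2% and 81.3% in the trailing cells. Tuba1b made up 21.3% and 23.8% at the wavefront and 16.4% and 16.7% in the trailing cells. Neither gene's groups overlapped (exact permutation p = 0.333, the smallest possible), and as these genes make up nearly all of the family, both shares are 1 difference. Tuba1c stayed between 1.36% and 2.05% in all libraries. The ratio of beta to alpha reads per kb was 1.06 and 1.22 at the wavefront and 0.934 and 0.962 in the trailing cells, without overlap.

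**Figure D3:**
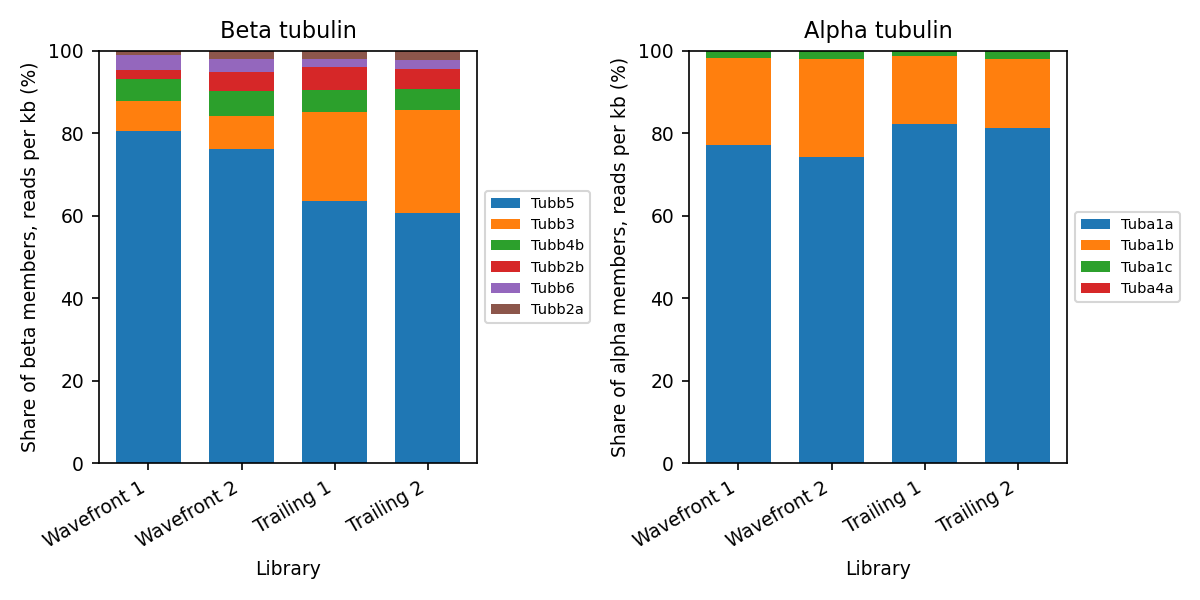
Share of each isotype in the reads per kb of the beta members (left) and of the alpha members (right), as stacked bars from 0 to 100% with 1 bar per library. Tubb3 takes 7.24% and 7.98% of beta tubulin in the wavefront bars and 21.5% and 25.02% in the trailing bars, while Tuba1a takes most of alpha tubulin in all 4.

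How well a read can be given to an isotype differed between members. Of the 50-base windows of the Tubb3 transcript, 0 of 1819 occurred in a transcript of another gene, and the same held for Tubb6, while Tubb5 shared 3 of 2600. By contrast 83.1% of the windows of Tuba1b, 75.5% of Tuba1a, 61.0% of Tuba1c, 55.5% of Tubb4b, 49.6% of Tubb2a and 39.3% of Tubb2b were shared. For the alpha genes the partners were each other and several further annotated loci, for Tubb2a and Tubb2b mainly each other, and for Tubb4b mainly its pseudogene Tubb4b-ps1 (43.6% of windows). Neither the read length nor the rule for reads with several hits was known here. The Tuba1a, Tuba1b, Tuba1c, Tubb2a, Tubb2b and Tubb4b values and the shares built on them are therefore uncertain, while Tubb3, Tubb5 and Tubb6 had next to no window to lose. Tubb3 lies within the span of Gm20388 on the same strand, though no 50-base window of the Tubb3 transcript occurred in a transcript of that gene.

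A stretch of 45 bases that Tubb3 shares with Tubb2b (coding bases 1006 to 1050 of Tubb3) is the longest of the runs it shares with Tubb2b, Tubb4b and Tubb5. It is printed to show that even this run is shorter than a 50-base window.
Tubb3 and Tubb2b: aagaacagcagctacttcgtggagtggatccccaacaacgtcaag

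**Figure D4:**
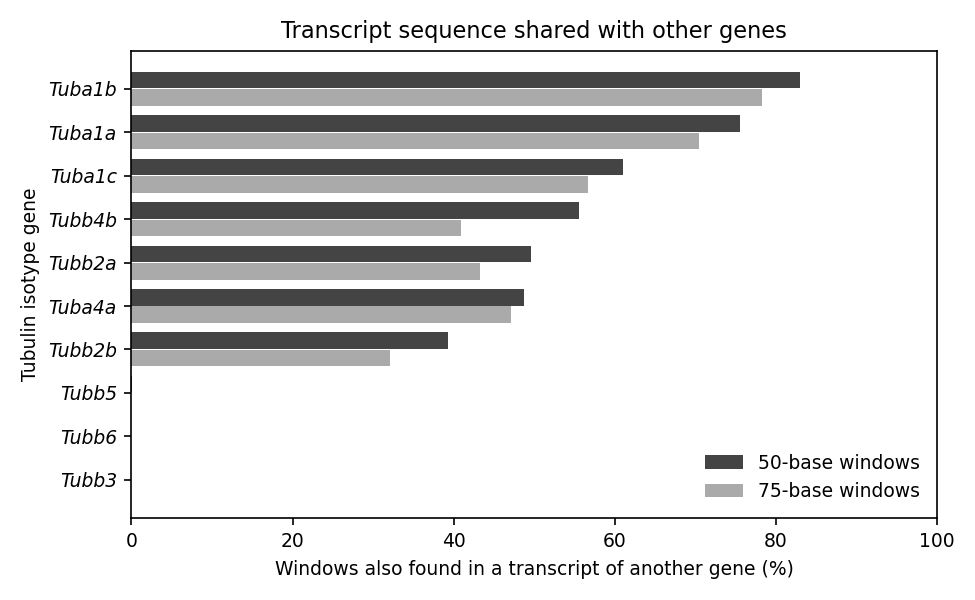
Percent of the 50-base (dark) and 75-base (light) windows of each member's longest coding transcript that also occur in a transcript of another gene. The 3 Tuba1 genes share from 61.0% to 83.1% of 50-base windows, whereas Tubb3 and Tubb6 share none and Tubb5 0.115%.

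Outside the 10 members, edgeR tested 2 of 10 other tubulins. Tubb4a, the class IVa beta isotype of neurons and oligodendrocytes, was the only 1 of them to pass there. It had 3 and 2 reads at the wavefront and 17 and 21 reads in the trailing cells, or 8.36 ± 4.70 and 38.1 ± 8.36 scaled CPM. Its log2 fold change was -2.47 ± 0.65 (edgeR adjusted p = 0.0283), and it passed in 5 of 10 other settings, failing without either trailing library, without wavefront replicate 1, with a replicate block (edgeR adjusted p = 0.157) and by the authors' deposited p-values (log2 fold change -0.95, adjusted p = 0.9997). Those settings were of the count test, and in limma the adjusted p of Tubb4a was 0.680. DESeq2 on the same reads gave it a log2 fold change of -2.37 and no adjusted p, and the authors' deposited fold is shrunken. Both wavefront libraries were at or under the floor of 3 reads for Tubb4a. It met edgeR's read filter only through the trailing group, where it was high, so that call leans toward lower values at the wavefront. The gamma-tubulin gene Tubg1, part of the nucleation complex, had 50 and 10 reads at the wavefront and 32 and 29 in the trailing cells. Its log2 fold change of 0.32 did not pass. Tuba3a, Tuba3b, Tuba8, Tubal3 and Tubb1 had 0 reads in all libraries.

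No gene of the lists that fold, modify, nucleate or sever tubulin passed. In edgeR 1.74% of all 5759 genes tested passed, and 570 were at an unadjusted p under 0.05. At that share, lists this short would be likely to hold few or no called genes, so 0 is no result about them. Of 22 folding genes, which include the CCT chaperonin, prefoldin and the tubulin cofactors, 18 were tested and 0 passed in edgeR, with 0 at an unadjusted p under 0.05 and 0 calls in limma and DESeq2. Their median log2 fold change was 0.11. The most abundant, Cct8, had 1181 and 225 reads at the wavefront and 914 and 563 in the trailing cells, and its log2 fold change was 0.19 (edgeR adjusted p = 0.938). Cct6a, another CCT subunit, had a log2 fold change of 0.12. Of 22 modification genes 11 were tested and 0 passed (1 at an unadjusted p under 0.05, 0 in limma and DESeq2), with a median of -0.09. The detyrosinating enzymes of this list with the most reads were Vash2, at 53 and 14 reads at the wavefront and 27 and 29 in the trailing cells (log2 fold change 0.63), and Vash1 (-0.49). The lowest was the alpha-tubulin acetyltransferase Atat1, named after its values were seen, with 12 and 2 reads at the wavefront and 24 and 21 in the trailing cells. Its log2 fold change of -1.30 ± 0.49 did not pass (edgeR adjusted p = 0.266).

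Of 12 genes of the gamma-tubulin complex 10 were tested, and of 7 severing genes 4. In both lists 0 passed in edgeR, with 0 at an unadjusted p under 0.05, and 0 passed in limma and DESeq2. Medians were 0.20 for the gamma-tubulin complex and 0.04 for severing. Tubgcp2, a core subunit of the gamma complex, had 63 and 14 reads at the wavefront and 35 and 29 in the trailing cells (log2 fold change 0.62), and its small partner Mzt1 was at -0.31. Among severing enzymes Fignl1 was at 0.22 and the katanin subunit Katna1 at 0.32, and neither passed.

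**Figure D5:**
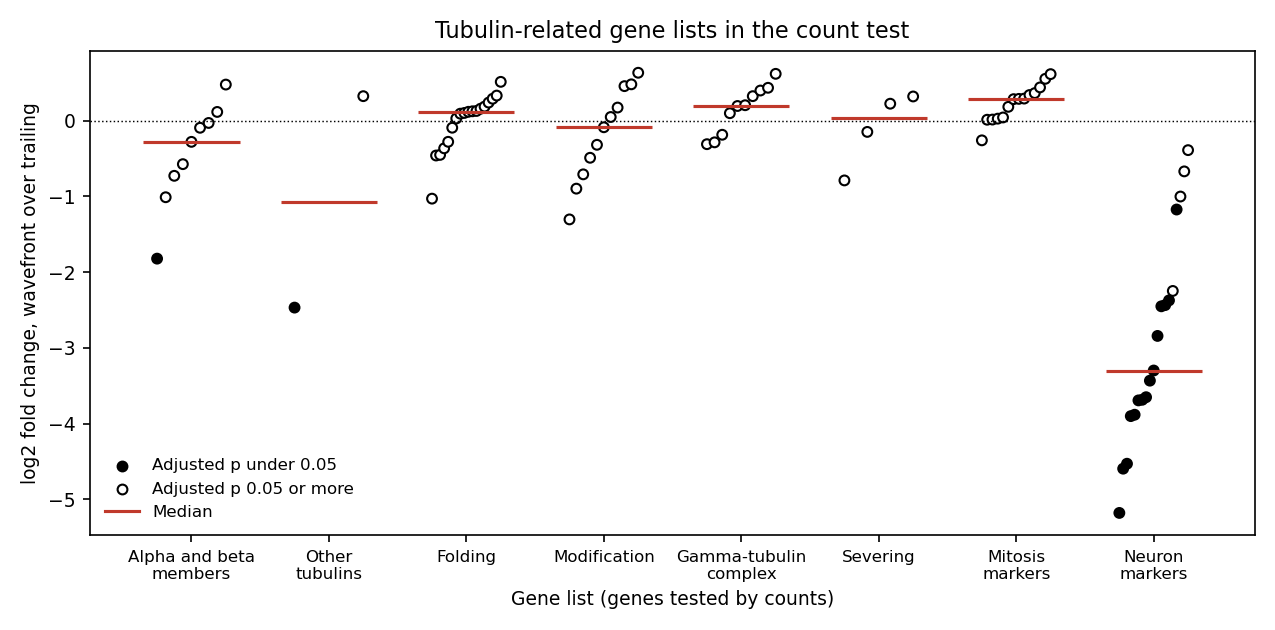
Log2 fold change, wavefront over trailing, of each gene tested by counts in 8 lists, with filled points for an edgeR adjusted p under 0.05 and a line at the median. The tubulin members have a median of -0.28 with Tubb3 the filled point, the folding, modification, gamma-complex and severing lists lie around 0, and the neuron markers have a median of -3.30.

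Neuron markers moved in the same direction as Tubb3. Of 22 such genes, 19 were tested, 15 were lower at the wavefront and 0 higher (edgeR), with a median log2 fold change of -3.30, where 1.34% of all genes tested were called lower. DESeq2 called 6 of the list. Limma, which tested 21 of the list, called 0, with 18 at an unadjusted p under 0.05. Over all genes, limma had 858 of 12519 at that level. The noradrenaline-synthesis enzyme Dbh had 13 and 3 reads at the wavefront, against 271 and 237 in the trailing cells. Nefl, a neurofilament subunit, had 17 and 7 reads, against 225 and 185. Stmn2, which binds tubulin dimers, had 11 and 3 reads, against 86 and 96, and Rtn1, a reticulon of neuronal endoplasmic reticulum, had 4 and 2 reads, against 58 and 64. Summed, the list was at 1192 and 1061 CPM outside ribosomal RNA at the wavefront and 3968 and 4854 in the trailing libraries, with 2 and 5 members at 0 reads at the wavefront and 2 and 0 in the trailing libraries. Several tested genes of the list were at or under the floor of 3 reads in both wavefront libraries. Dbh, Stmn2, Rtn1 and most other called genes of the list also had too few wavefront reads to meet edgeR's read filter from that group. Nefl met it there. All but such genes as Nefl entered the test only through the trailing group, where they were high. The 15 calls and the median therefore lean toward lower values at the wavefront. Tubb3 has a log2 fold change of -1.82 beside that list's -3.30, which is not a like measure, and 328 Tubb3 reads remained at the wavefront. The part of neuron number in the Tubb3 difference was not tested.

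Markers of other cells differed too, and their part in the tubulin values was not tested. Markers of the labelled crest cells were present in every library. This progenitor list ranged from 3218 to 5569 CPM outside ribosomal RNA at the wavefront and from 3690 to 4719 in the trailing libraries, with 0 of 8 tested genes called by edgeR (2 at an unadjusted p under 0.05; 0 in limma and DESeq2). Its receptor gene Ret had 1413 and 155 reads at the wavefront and 864 and 545 in the trailing cells. Mesenchyme markers were at 529 and 1548 CPM outside ribosomal RNA at the wavefront and 243 and 251 in the trailing libraries. Of 16 such genes only 3 were tested. Des, a muscle filament gene, and Col3a1, a matrix gene, were higher at the wavefront in edgeR (2 of 3 tested). Des had 73 and 10 reads at the wavefront and 8 and 6 in the trailing libraries. It entered the test only through the wavefront group, where it was high, so its call leans toward higher values there. Limma and DESeq2 called 0 of this list. Over all genes tested edgeR called 1.74%, with 0.399% called higher. Haemoglobin and other erythroid genes held 112 reads in wavefront replicate 2 and 0 to 2 in the other libraries, and epithelial genes 14 and 10 reads at the wavefront and 4 and 3 in the trailing cells. Of 14 mitosis genes, 13 had a fold change above 0 and 0 passed in edgeR (0 at an unadjusted p under 0.05; 0 in limma and DESeq2). Their sum was 2886 and 3253 CPM outside ribosomal RNA at the wavefront and 2440 and 2749 in the trailing libraries.

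By distance between centred log2 profiles over the 4 libraries, among 2867 genes of at least median abundance, genes with a profile like that of Tubb3 included the homeobox gene Dlx2, at a distance of 0.209. It was at 38.6 and 29.2 scaled CPM at the wavefront and 134 and 105 in the trailing libraries, without overlap. Next came the G-protein subunit gene Gng2 (0.299), Dpysl3, a collapsin response mediator gene of growing axons (0.448), and Mllt11 (0.470). These 4 were lower at the wavefront in edgeR's test, with log2 fold changes from -2.22 to -1.49. That direction was set by choosing them for likeness to Tubb3 on these same values. For Tubb6 the nearest named profiles were Tril (0.073), the spindle gene Tacc3 (0.114) and 9530068E07Rik (0.118), and 2 rows without a symbol were as near. None of these passed, which is no separate result, as they were chosen for likeness to Tubb6 on the same values. With 4 libraries, likeness of profile describes these values only.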

How the data were processed

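Per the labels' protocols, cells were freed from the gut by collagenase-dispase, purified by flow cytometry for tdT and lysed in Trizol, and libraries were made with Nextera XT, a kit without strand information. Per the submitters' processing notes, STAR 2.5.2b, featureCounts, DESeq2, bcl2fastq 2.17 and FastQC 0.11.9 were used with the GRCm38 (mm10) build. Not given in the sources used here are the annotation release, the read length and the settings for multiple hits and overlaps.

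Each library has a column of CPM, per the file headers. The authors' deposited BaseMean is a signal, the mean of reads over size factors. The authors' deposited fold changes and standard errors are log2 values, the deposited Wald statistic is a score, and the deposited p-value is not adjusted.

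Whole reads were recovered from the CPM (100% of values within 0.01 reads), giving library totals of 543070 and 260217 for the wavefront and 517000 and 452142 for the trailing group. In the order given, 1 read is worth 1.84, 3.84, 1.93 and 2.21 CPM. Of 27606 rows, 428 repeats were dropped, leaving 27178 genes. The 958 rows without a symbol, with 1.27% to 2.51% of reads, were kept by identifier. All per-library columns were matched to samples.

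The design set limma 3.58.1 with a trend on log2(CPM + 1) for genes with mean CPM above 1, with edgeR 4.0.16 (quasi-likelihood, TMM, filterByExpr with a minimum of 10) on recovered reads beside it, and DESeq2 1.42.0 as an alternative, under R 4.3.3. Location was the only term, adjusted p are Benjamini-Hochberg over all genes tested, p are two-sided, and the threshold was 0.05. Fold changes from limma are on the log2(CPM + 1) scale, which understates low genes. Over all genes the median log2 fold change came to -0.35 in limma, 0.01 in edgeR and -0.20 in edgeR with library size alone, and gene values are read relative to these. Each fit was tested on simulated data. That check covered the direction of large known changes and, for edgeR and DESeq2, their size. The simulated libraries shared 1 profile, so the uneven ribosomal RNA of the real libraries was not covered. The members and gene lists were chosen with earlier results of these data known. Named genes are all members, up to 4 called genes of each list (up to 2 with the most reads where none was called), and the 5 nearest profiles to Tubb3 and Tubb6, tubulins left out. Some genes and sequences that this rule names are not reported here. Of the 23 neuron markers, Nefm was not analysed here. Sequences, gene spans and exon lengths come from GENCODE M21, on the files' build.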

Additional observations from a re-analysis of the deposited data

How the results depend on the processing

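Same-numbered libraries deviated with a correlation of 0.059 over 5759 genes, and the labels do not tie the numbers to embryos, so the numbers were not taken as pairs. With the replicate block limma called 52 genes and edgeR 61, and in edgeR Tubb3 passed while Tubb4a did not (adjusted p = 0.157). Limma called 0 genes as designed and without any 1 library (range 0 to 0), and 10 with DESeq2 size factors, 46 with TMM, 33 above a mean CPM of 5, 5 with no filter and 3 with a pseudocount of 5. EdgeR called 100 genes, 40 without trailing replicate 2 and 44 without trailing replicate 1, a range of 40 to 143 over single libraries left out, and 13 in DESeq2 and 13 by the authors' deposited p-values. Of the members it called 1 (Tubb3), 0 with library size alone, and 0 to 2 with a library left out: 0 without either trailing library, 2 without wavefront replicate 2. The Tubb3 fold change was below 0 in all 11 count settings (-2.05 to -1.59) and past the threshold in 8, and in limma it passed in 1 of 11. Its share of beta tubulin differed by -10.8 percentage points in plain reads, which weigh long transcripts more, and by -17.4 to -13.9 with a library left out. The log2 difference of the summed members was -0.54 in deposited CPM, -0.26 in CPM outside ribosomal RNA and -0.26 in TMM-scaled CPM. In deposited CPM it was -1.18 to 0.09 with a library left out, above 0 without wavefront replicate 2. The cause of these shifts was not tested. Wavefront replicate 2, with 114972 reads outside ribosomal RNA, limits every member with few reads.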
